A study of Mus musculus with 6 samples.

Results

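This account covers 10 genes for haematopoietic and epithelial growth factors that an eosinophil could release, picked by symbol from a table of 23420 genes: Csf1, Flt3l, Lif, Osm, Areg, Ereg, Hbegf, Tgfa, Tgfb1 and Pdgfb. The table came from mouse eosinophils of wild-type genotype grown out of bone marrow. Both groups shared the same culture, which began with stem cell factor and FLT3 ligand, each at 100 ng/mL, until day 4, and went on in IL-5 at 20 ng/mL. On day 14, after removal of dead cells, 3 libraries were made from cells that received 2.5 ng/mL of IL-33 over 3 hours, and 3 from cells with PBS in its place. The labels name no mouse strain or age. They also do not state whether replicate libraries stand for different animals or cultures, and p-values therefore reflect a spread between libraries that may be only technical. The cells were matured in culture, and FLT3 ligand protein was itself part of the early medium.

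Growth factors act through receptors on the releasing cell or on its neighbours. Csf1 encodes M-CSF, which sustains macrophages through its receptor CSF1R, and Flt3l encodes the ligand that expands progenitors and dendritic cells through FLT3. Lif and Osm encode cytokines of the IL-6 family, which signal through the shared chain gp130. Areg, Ereg, Hbegf and Tgfa encode ligands of the EGF receptor family that are made as membrane-anchored precursors and cut free by proteases such as ADAM17. Tgfb1 encodes TGF-beta 1, which is stored in a latent form and signals through SMAD proteins, and Pdgfb encodes a chain of platelet-derived growth factor, a mitogen of mesenchymal cells. Eosinophils are known as a source of TGF-beta 1 in tissue remodelling.

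Of the 10 genes, 5 were higher after IL-33 (Csf1, Lif, Osm, Hbegf and Tgfb1) and 1 was lower (Flt3l). The other 4 lay below the filter on low values, which asked for a normalized count (a read count divided by 1 factor per library) of at least 10 in at least 3 libraries. The test was limma on log2(normalized count + 1), with a call at an adjusted p under 0.05. Over all 10544 genes tested, 17.4% were called higher and 14.4% lower. Hbegf reached the filter only through its IL-33 libraries, so its being tested and its being higher are not independent. The remaining 5 tested genes were at 10 or more in every library. In 5 genes every IL-33 library lay above every PBS library, against 25.5% of all genes tested, and in 1 gene every IL-33 library lay below, against 24.7%.

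**Figure D1:**
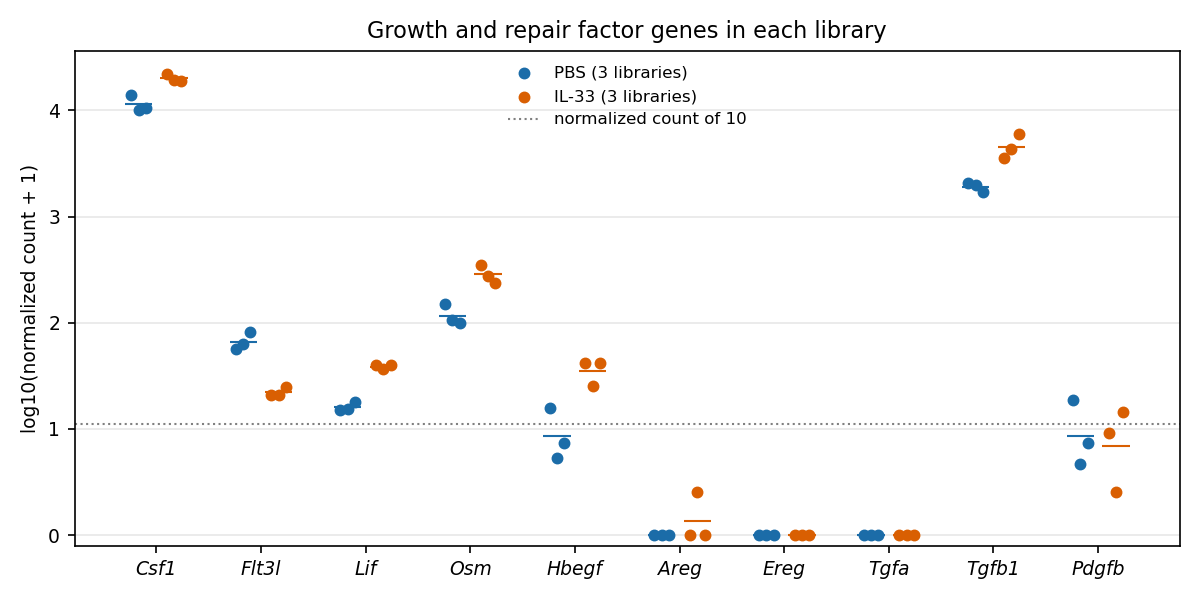
Normalized counts of the 10 factor genes in each of 3 PBS (blue) and 3 IL-33 (orange) libraries, on a log10(normalized count + 1) axis. Points are libraries, short lines are the means of the plotted log values, and the dotted line marks a normalized count of 10. Csf1 and Tgfb1 stand above the other genes in both groups, the groups separate for Csf1, Flt3l, Lif, Osm, Hbegf and Tgfb1, and Areg, Ereg and Tgfa lie at or near 0.

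The libraries held between 8218303 and 10785521 reads. Rn45s, the ribosomal RNA precursor gene, accounted for 24.3%, 59.6% and 54.8% of the IL-33 libraries in replicate order and for 13.7% to 24.8% of the PBS libraries, which left 4229504 to 7129435 reads for other genes. The share lay above the PBS range in IL-33 replicates 2 and 3 and within it in IL-33 replicate 1. In that replicate, all 6 tested factor genes lay outside their PBS range in the deposited scaling. This already follows from the lack of overlap given above and is no separate result. Calls of some of these genes depended on the scaling, and the part of Rn45s in this was not tested. Across all genes tested, the median log2 fold change was -0.03 in the deposited scaling, -0.45 when libraries were brought to equal totals without Rn45s and -1.06 when Rn45s was kept in the totals. With equal totals 0 of the 10 factor genes were called higher (2.50% of all genes) and 1 lower (50.1%), and without Rn45s in the totals 4 were higher (9.02%) and 1 lower (33.8%). Of 12 eosinophil markers, each had reads in both groups, although Ear2 had 0 in IL-33 replicates 2 and 3. They had summed normalized counts of 54287 to 65300 in PBS and 25059 to 35783 after IL-33, and 10 of them were called lower and 1, Gata1, higher.

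The stretches just upstream of the start sites are shown for Csf1, Tgfb1 and Lif, which were higher, and for Flt3l, which was lower, so that the sequences in front of genes moving in opposite directions can be compared. RefSeq (GRCm38.p6) promoter entries matched 6 of the 10 genes (Csf1, Lif, Areg, Tgfa, Tgfb1 and Flt3l). Each line gives the 250 bases before the start, 5′ to 3′ on the gene's strand, with matches to the NF-kB consensus or to the AP-1 motif TGANTCA in capitals. The spans are chr3:107760470-107760719 (minus strand) for Csf1, chr7:25686752-25687001 (plus strand) for Tgfb1, chr11:4257318-4257567 (plus strand) for Lif and chr7:45136433-45136682 (minus strand) for Flt3l.
Csf1: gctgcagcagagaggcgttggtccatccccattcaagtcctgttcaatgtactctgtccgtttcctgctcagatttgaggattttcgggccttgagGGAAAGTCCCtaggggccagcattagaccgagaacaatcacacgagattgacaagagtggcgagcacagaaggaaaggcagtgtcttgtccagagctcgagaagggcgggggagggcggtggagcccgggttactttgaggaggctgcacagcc
Tgfb1: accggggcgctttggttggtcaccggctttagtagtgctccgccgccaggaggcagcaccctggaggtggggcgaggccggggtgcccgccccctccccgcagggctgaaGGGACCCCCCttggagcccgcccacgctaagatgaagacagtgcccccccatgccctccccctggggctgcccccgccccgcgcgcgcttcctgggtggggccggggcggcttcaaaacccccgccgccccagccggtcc
Lif: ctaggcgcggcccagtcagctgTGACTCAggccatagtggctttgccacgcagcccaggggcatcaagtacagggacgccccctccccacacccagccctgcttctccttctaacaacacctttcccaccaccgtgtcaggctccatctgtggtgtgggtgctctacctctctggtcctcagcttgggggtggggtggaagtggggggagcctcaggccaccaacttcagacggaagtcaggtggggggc
Flt3l: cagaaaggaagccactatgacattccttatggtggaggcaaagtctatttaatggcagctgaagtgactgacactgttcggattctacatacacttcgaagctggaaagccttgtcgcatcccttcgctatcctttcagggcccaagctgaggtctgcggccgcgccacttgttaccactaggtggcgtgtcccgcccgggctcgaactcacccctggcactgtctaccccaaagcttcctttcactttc

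Both strands were searched, and the matches did not overlap each other. Csf1 and Tgfb1 each held 1 match to the NF-kB consensus, from 154 to 145 and from 140 to 131 bases upstream. This consensus was found in 5.03% of 32536 RefSeq upstream stretches of this length. Lif held 1 AP-1 match, from 228 to 222 bases upstream, which 6.73% of the stretches contain. Flt3l and Tgfa had no match to either motif in this window. The cyclic AMP response element TGACGTCA, present in 1.56% of stretches, was found only in that of Areg among the 6 genes, from 61 to 54 bases upstream. TTCNNNGAA, a STAT motif held by 7.04% of stretches, was found in none of the 6. These are letter matches and show neither binding nor use of a site.

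Csf1 (ENSMUSG00000014599.10, chromosome 3, 107741048 to 107760469, minus strand) had normalized counts of 13945, 10149 and 10481 in PBS replicates 1, 2 and 3 and of 22110, 19239 and 18824 in the IL-33 libraries. The lowest IL-33 library stood above the highest PBS library, PBS replicate 1. The means were 11525 ± 2103 (SD, n = 3) and 20058 ± 1789 (n = 3), with a log2 fold change of 0.81 (SE 0.18, limma adjusted p = 0.0128). The call depended on the scaling: the log2 fold change was 0.39 after scaling to equal totals without Rn45s (limma adjusted p = 0.11) and -0.23, the opposite direction, with equal totals (limma adjusted p = 0.574). Csf1 was also not called without PBS replicate 2 (0.73, limma adjusted p = 0.0728) or PBS replicate 3 (0.75, limma adjusted p = 0.0763).

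Csf1 had by far the highest level of the 10 genes. Levels of different genes were compared as TPM, that is, recovered reads divided by exonic length and scaled to a sum of 1000000 in every library over all genes with a length, Rn45s left out. Csf1 reached 1573 ± 269 TPM (n = 3) in PBS and 1784 ± 500 TPM (n = 3) after IL-33. On this scale the groups overlapped, at 1873, 1354 and 1492 in PBS replicates 1, 2 and 3 and 2358, 1553 and 1442 in the IL-33 libraries. It ranked 29th to 36th of 23001 genes in the PBS libraries and 30th to 43rd in the IL-33 libraries. Of the summed TPM of the 10 genes, Csf1 made up 80.8% to 84.0% in PBS and 72.9% to 82.4% after IL-33.

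Flt3l (ENSMUSG00000110206.1, chromosome 7, 45129788 to 45136432, minus strand) was the member that fell. Its normalized counts were 55.9, 62.6 and 80.4 in the PBS libraries and 19.8, 19.99 and 23.7 in the IL-33 libraries. The highest IL-33 library lay well below the lowest PBS library, and the IL-33 values were close to each other. The means were 66.3 ± 12.6 (n = 3) and 21.2 ± 2.22 (n = 3), with a log2 fold change of -1.59 (SE 0.26, limma adjusted p = 0.00418). Recovered reads were few, 273 over the PBS libraries and 49 over the IL-33 libraries. The call held in every alternative run, from -1.43 with a pseudocount of 5 to -2.60 after scaling to equal totals. Of its 3878 exonic bases, 22.1% are shared with the gene model Gm45713 on the same strand, and how reads there were assigned is not given in the sources used here.

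The IL-6 family genes Lif and Osm lie next to each other on chromosome 11, at 4257557 to 4272514 and 4236420 to 4241026, both on the plus strand. The gap between them is 16.5 kb and holds 0 other protein-coding genes. Lif, named for its inhibition of leukaemia cells, had normalized counts of 13.98, 14.6 and 16.8 in PBS and of 38.7, 35.4 and 39.0 after IL-33. Each group was tight and the groups were far apart. The log2 fold change was 1.27 (SE 0.27, limma adjusted p = 0.011), on 62 PBS and 89 IL-33 reads. Without PBS replicate 2, the change of Lif was 1.24 and no longer called (limma adjusted p = 0.057).

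Osm, which encodes oncostatin M, a cytokine that acts on stromal and epithelial cells, was expressed at a higher level than its neighbour. Its normalized counts were 149.9, 104.8 and 97.8 in PBS and 352, 275 and 237 after IL-33. All IL-33 libraries lay above all PBS libraries, and replicate 1 was the highest of each group. The means were 117 ± 28.3 (n = 3) and 288 ± 58.7 (n = 3), with a log2 fold change of 1.29 (SE 0.24, limma adjusted p = 0.00693). Osm was called without each library in turn, between 1.14 and 1.48. With equal totals the values were 0.26 for Osm and 0.27 for Lif, and neither was called (limma adjusted p = 0.603 and 0.587). In TPM, Lif was at 2.51 ± 0.34 and 4.03 ± 0.85 (n = 3 each) and Osm at 37.2 ± 8.29 and 60.4 ± 23.8 (n = 3 each) in PBS and IL-33. On the TPM scale the Osm groups overlapped and the Lif groups did not.

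Of the 4 genes for EGF receptor ligands among the 10, Hbegf alone had more than a single read. Hbegf, which encodes heparin-binding EGF-like growth factor, an inducer of epithelial and smooth muscle growth, had normalized counts of 14.8, 4.37 and 6.29 in PBS and of 40.5, 24.6 and 40.7 after IL-33. The lowest IL-33 library, replicate 2, was above the highest PBS library, replicate 1. The log2 fold change of 2.06 (SE 0.46, limma adjusted p = 0.0138) had the largest size of the 6 and also the largest SE, on 34 PBS and 85 IL-33 reads. It was not called without PBS replicate 2 (1.72, limma adjusted p = 0.06) or PBS replicate 3 (1.94, limma adjusted p = 0.0675), with the Rn45s share as a covariate (2.24, limma adjusted p = 0.057) or with equal totals (1.10, limma adjusted p = 0.121).

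Areg, the amphiregulin gene linked to repair functions of several immune cells, had 1 read in IL-33 replicate 2 and 0 in the other libraries. Ereg, the epiregulin gene, and Tgfa, the gene of TGF-alpha, had 0 reads in all 6 libraries. A count of 0 allows up to 3 reads, out of 15714525 reads on genes other than Rn45s in the IL-33 libraries (0.191 per 1000000 reads) and out of 20576689 in the PBS libraries (0.146 per 1000000 reads; counting error only). A difference below these limits was not detectable at this depth. Areg (chromosome 5, 91139599 to 91148432) and Ereg (91074622 to 91093646) are neighbours 45.95 kb apart, in a cluster with the EGF receptor ligand genes Epgn and Btc, which also had 0 reads in all 6 libraries. Tgfa lies on chromosome 6 (86195223 to 86275719).

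Tgfb1 (ENSMUSG00000002603.15, chromosome 7, 25687002 to 25705077, plus strand) had normalized counts of 2078, 1961 and 1693 in PBS and of 3593, 4348 and 6011 after IL-33. The groups were far apart, and IL-33 replicate 3 was the highest. The means were 1911 ± 197 (n = 3) and 4651 ± 1237 (n = 3), with a log2 fold change of 1.26 (SE 0.21, limma adjusted p = 0.00482). It was called without each library in turn, between 1.05 and 1.42. The change was 0.88 with the Rn45s share as a covariate (limma adjusted p = 0.0366), 0.83 after scaling to equal totals without Rn45s (limma adjusted p = 0.0107) and 0.21, not called, with equal totals (limma adjusted p = 0.513). At 273 ± 19.9 TPM in PBS and 417 ± 58.9 TPM after IL-33 (n = 3 each), Tgfb1 was next to Csf1 in level. The groups did not overlap in TPM either. The ratio of Csf1 to Tgfb1 in TPM was 4.94 to 6.41 in PBS and 2.99 to 5.88 after IL-33.

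Pdgfb (chromosome 15, 79995874 to 80014977, minus strand) had normalized counts of 17.9, 3.64 and 6.29 in PBS and of 8.09, 1.54 and 13.6 after IL-33. The groups overlapped across nearly their whole range. It lay below the filter, on 37 PBS and 18 IL-33 reads. Without a filter its log2 fold change was -0.31 (SE 0.75, limma adjusted p = 0.785), so a change of either sign lies within the error.

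By level, the order in PBS was Csf1, Tgfb1, Osm, Flt3l, Lif, Pdgfb and Hbegf, with Flt3l at 12.4 ± 2.82 TPM, Pdgfb at 1.60 ± 1.28 and Hbegf at 1.26 ± 0.80 (n = 3 each). Pdgfb overlapped both Lif and Hbegf in this group, while Lif lay above Hbegf in all PBS libraries. After IL-33 the order was Csf1, Tgfb1, Osm, Lif, Hbegf, Flt3l and Pdgfb. Hbegf, at 3.43 ± 1.27 TPM, overlapped both Lif and Flt3l, and Flt3l was at 2.52 ± 0.34 TPM (n = 3 each). Flt3l thus stood above Lif in all PBS libraries and below it in all IL-33 libraries.

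**Figure D2:**
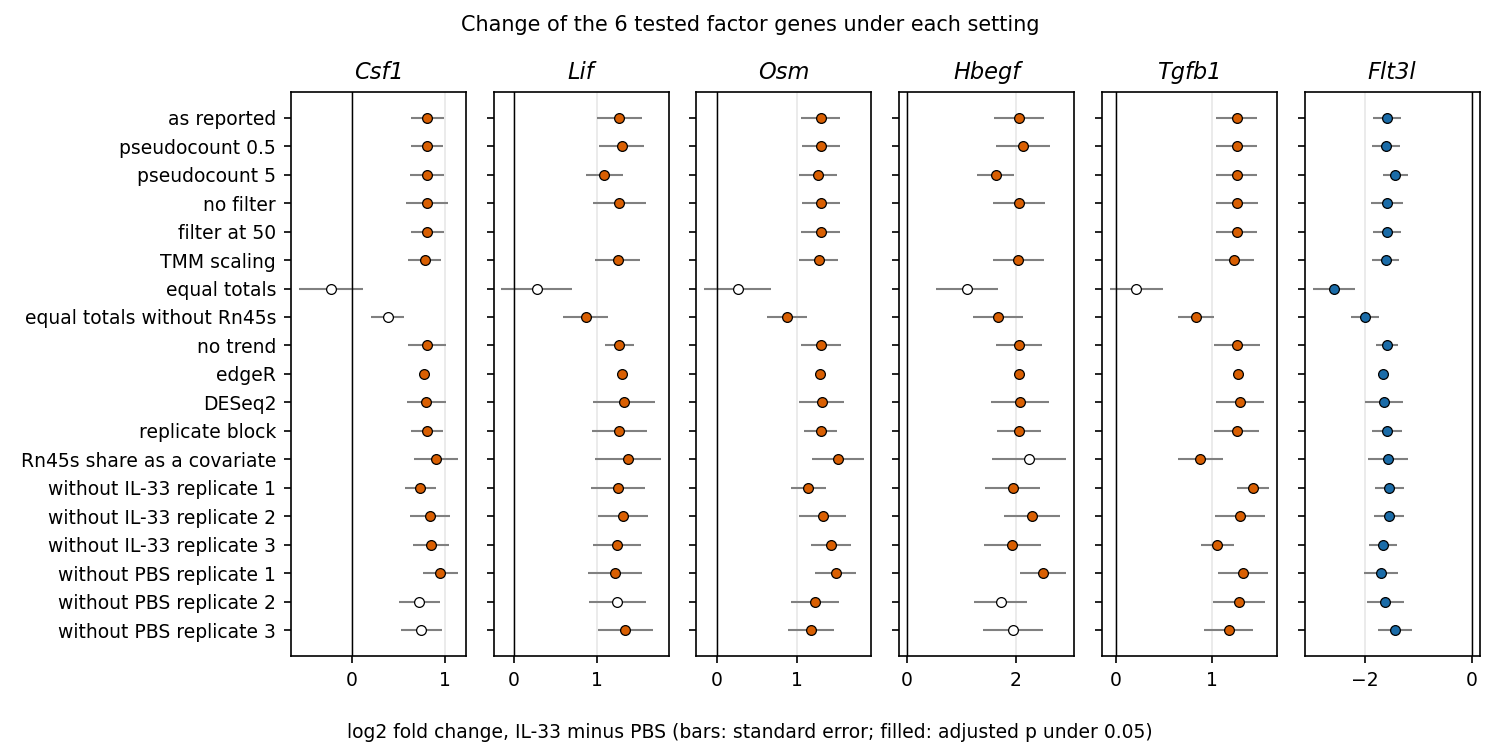
Log2 fold change (IL-33 minus PBS, x axis) of the 6 tested factor genes under each setting (y axis), with bars of 1 standard error (none for edgeR). Filled points have an adjusted p under 0.05, orange for higher and blue for lower, and a gap means that the gene did not pass that filter. Flt3l is filled throughout, Osm and Tgfb1 are open with equal totals only, and Csf1 crosses 0 there at -0.23.

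The receptors for these ligands were mostly low. Of 16 receptor chain genes listed, 7 were tested, 1 was higher and 0 were lower (median log2 fold change -0.16, against -0.03 over all genes). For lower genes the count was also 0 at an unadjusted p under 0.05 and with edgeR and DESeq2, but 2 without IL-33 replicate 1. In that last fit 2950 of all 10386 genes tested were lower. With equal totals 0 were higher and 2 lower. For this list and the later ones, the shares over all genes tested were 17.4% higher and 14.4% lower. With equal totals those shares were 2.50% and 50.1%. Csf1r, the receptor gene for Csf1, went from 1732, 1461 and 1718 in PBS to 3980, 4062 and 4934 after IL-33, with no overlap (log2 fold change 1.40, SE 0.16, limma adjusted p = 9.49e-04). It was not called with equal totals (0.36, limma adjusted p = 0.332). Flt3, the receptor gene for Flt3l, was below the filter in both groups, at 1.69 to 6.99. Egfr had 0 or 1 read per library and Erbb4 had 0 reads in all 6 libraries. The TGF-beta receptor gene Tgfbr2 was at 409 to 442 in PBS and 473 to 491 after IL-33 and was not called (0.17, limma adjusted p = 0.395).

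Since Csf1 and Csf1r are also macrophage genes, markers of other cells were measured beside them. Over 13 macrophage and monocyte markers, the summed normalized count was 8972 to 11523 in PBS and 25141 to 32002 after IL-33, with 3 genes higher and 1 lower of 7 tested. Most of that sum was Emr1, the table's name for the F4/80 gene Adgre1, which mouse eosinophils also express, followed by Csf1r itself. The defining macrophage genes were at or near 0: Marco had 0 reads, C1qa was at 0 to 2.70, C1qc at 0 to 1.80, Mertk at 0 to 5.08 and Fcgr1 at 0 to 3.49. Stromal markers, relevant to Lif and Pdgfb, were low, at 50.3 to 88.0 in PBS and 76.3 to 115 after IL-33 in all, with 4 of 9 at 0 reads. Megakaryocyte and platelet markers, relevant to Tgfb1 and Pdgfb, summed to 2545 to 3434 and 2482 to 3105, and 2 of 5 tested genes were higher. Dendritic cell markers, relevant to Flt3l, summed to 402 to 746 in PBS and 692 to 1167 after IL-33, with 2 of 4 tested genes higher and 0 lower. Most of that sum was Itgax, Cd74, H2-Eb1 and H2-Ab1. The other listed genes were low in both groups: Flt3 as given above, Xcr1 at 0 to 3.64, Siglech at 0 to 1.55 and Cd209a at 0 to 2.10. Zbtb46 was at 2.80 to 9.89 and Ccr9 at 3.39 to 12.4. Mast cell and basophil markers summed to 1767 to 3245 in PBS and 2708 to 4267 after IL-33, most of it Hdc. Of 7 tested, 0 were higher and 2 lower. Neutrophil markers summed to 2623 to 3238 and 2041 to 2567, with 0 of 8 tested genes higher and 3 lower. Lymphoid markers summed to 76.4 to 88.5 and 47.5 to 83.6, with 0 of 2 tested genes higher and 0 lower. The part of other cells in the results was not tested. In bulk samples, fewer cells of a type and less RNA per cell cannot be told apart.

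Genes that cut or traffic membrane-anchored growth factors were in part higher. Of 18 listed genes 13 were tested, 6 higher and 0 lower (median log2 fold change 0.68; 0 lower also at an unadjusted p under 0.05 and with edgeR and DESeq2). With equal totals 2 were higher and 5 lower, where 2.50% of all genes tested were higher and 50.1% lower. Adam17, the protease that releases EGF receptor ligands and M-CSF, went from 959, 693 and 690 in PBS to 3837, 2753 and 2003 with IL-33 (log2 fold change 1.84, SE 0.26, limma adjusted p = 0.0022), with no overlap. Adam17 was not called with equal totals (0.80, limma adjusted p = 0.147). Furin, a convertase that cleaves the TGF-beta 1 precursor and ADAM17, went from 2863, 2653 and 2674 to 8551, 10678 and 12103 (1.92, SE 0.17, limma adjusted p = 3.23e-04) and was called in every alternative. Cd81, a tetraspanin of the cell surface, went from 242, 191 and 168 to 1079, 1332 and 1881 (2.81, SE 0.24, limma adjusted p = 3.00e-04), and also kept its call throughout.

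A pair of genes outside the naming rule, chosen after their values were seen, encode partners of ADAM17. Rhbdf2, the gene of iRhom2, which carries ADAM17 to the surface, was at 881, 746 and 720 in PBS and 1615, 1530 and 1580 with IL-33 (1.01 on the log2 scale, SE 0.15, limma adjusted p = 0.00314), but had -0.03 with equal totals. Frmd8, whose product stabilizes iRhoms, was at 799, 790 and 701 and at 887, 1616 and 1778 (0.84, SE 0.26, limma adjusted p = 0.0417). Frmd8 lost its call without any single library except IL-33 replicate 1, and had 0.42 and -0.20 after scaling to equal totals without and with Rn45s. It was also not called without a trend (limma adjusted p = 0.0666) or with the Rn45s share as a covariate (0.16, limma adjusted p = 0.641). Adam10, another sheddase, did not pass the test, with a log2 fold change of -0.15 (limma adjusted p = 0.585).

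**Figure D3:**
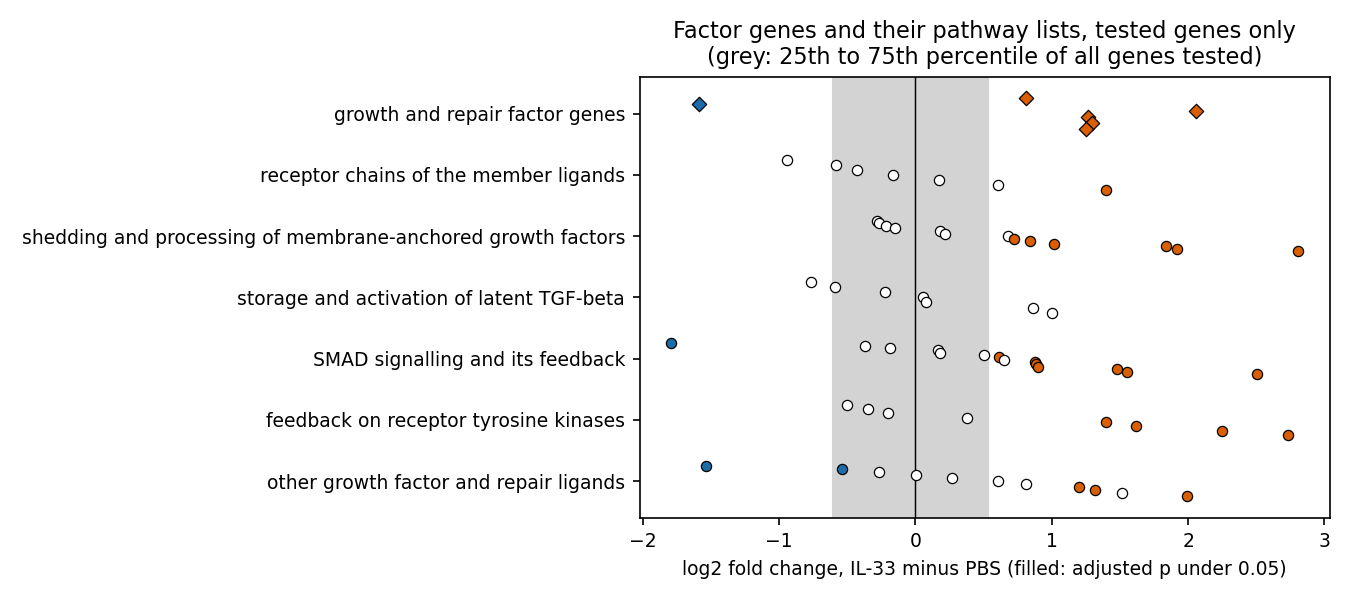
Log2 fold change (IL-33 minus PBS, x axis) of each tested gene, by list (y axis): the 6 tested factor genes as diamonds and the 6 pathway lists as circles, orange for called higher, blue for called lower and white for not called. The grey band runs from the 25th to the 75th percentile of all genes tested, -0.60 to 0.53, and all 6 diamonds lie outside it.

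Latent TGF-beta is held and activated by binding proteins and integrins. Of 15 such storage and activation genes, 7 were tested and 0 were called in either direction by limma or edgeR, against 1 higher with DESeq2. With equal totals 0 were higher and 4 lower, and without Rn45s in the totals 0 and 3. Without IL-33 replicate 1, 1 was lower, in a fit where 2950 of all 10386 genes tested were. At an unadjusted p under 0.05, 1 was higher and 1 lower, the genes Thbs1 and Itgb5. Itgb5, an integrin chain, had the smallest p of the list (log2 fold change -0.77, SE 0.31, limma adjusted p = 0.0902), and it was lower with either equal-total scaling. Thbs1, the gene of thrombospondin 1, an activator of latent TGF-beta, was chosen after its values were seen for its level. Thbs1 was at 17085, 10580 and 10807 in PBS and 42146, 18652 and 15055 after IL-33, with IL-33 replicate 1 far above the rest (0.87, SE 0.38, limma adjusted p = 0.109). It was called with DESeq2 (0.98, adjusted p = 0.0452), with the replicate number as a block (0.87, limma adjusted p = 0.0251) and with the Rn45s share as a covariate (1.69, limma adjusted p = 0.0206), and had -0.18 with equal totals.

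Of 18 SMAD signalling and feedback genes, 14 were tested, 7 higher and 1 lower (median log2 fold change 0.63), and with equal totals 1 was higher and 4 lower. The higher count was 2 without PBS replicate 2, 3 without PBS replicate 1 or PBS replicate 3 and 4 without IL-33 replicate 2. Its highest value on leaving out 1 library was 9. Over all genes, 782 of 10292 were higher without PBS replicate 2 and 1108 of 10294 without PBS replicate 1. Those counts were 695 of 10313 without PBS replicate 3 and 874 of 10363 without IL-33 replicate 2, against 1837 of 10544 with all libraries. The higher count of the list was 3 with equal totals without Rn45s and 4 with the Rn45s share as a covariate. In these 2 fits 951 and 914 of all 10544 genes were higher. Among the inhibitors, Smad7 was at 310, 278 and 232 in PBS and 497, 863 and 1017 after IL-33 (1.48, SE 0.28, limma adjusted p = 0.00699). Bambi, a decoy receptor, was at 14.8, 9.46 and 9.09 and at 53.0, 58.4 and 93.2 (2.50, SE 0.34, limma adjusted p = 0.00186). Like Hbegf, Bambi reached the filter only through its IL-33 libraries, so its being tested and its being higher are not independent. Skil, a repressor of SMAD targets, was at 246, 199 and 259 and at 1116, 655 and 441 (1.55, SE 0.32, limma adjusted p = 0.0101), and was not called without PBS replicate 2 (1.44, limma adjusted p = 0.0514). With equal totals Smad7 (0.44) and Skil (0.51) were not called, whereas Bambi was. The single lower gene was Tgfbi, a matrix protein gene named for its induction by TGF-beta, at 527, 589 and 767 in PBS and 288, 132 and 149 after IL-33 (-1.79, SE 0.31, limma adjusted p = 0.00508), and it was called in every alternative. So the ligand gene Tgfb1 was higher in the same libraries in which Tgfbi was lower.

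Feedback genes downstream of growth factor and cytokine receptors were partly higher. Of 14 listed, 8 were tested, 4 higher and 0 lower (median log2 fold change 0.89; 0 lower also at an unadjusted p under 0.05 and with edgeR and DESeq2). With equal totals 2 were higher and 3 lower. Cish, an inhibitor of STAT signalling, was at 117, 87.3 and 90.9 in PBS and 939, 503 and 598 after IL-33 (2.74, SE 0.26, limma adjusted p = 4.29e-04). Spred1, an inhibitor of the RAS pathway, was at 53.6, 29.1 and 30.1 and at 169, 171 and 186 (2.25, SE 0.27, limma adjusted p = 0.00123). Spred2, its relative, was at 116, 87.3 and 61.5 and at 174, 295 and 358 (1.62, SE 0.33, limma adjusted p = 0.00977). It was not called without PBS replicate 3 (1.38, limma adjusted p = 0.0515) or with the Rn45s share as a covariate (0.85, limma adjusted p = 0.101). Socs3, an inhibitor of gp130 signalling named after its values were seen as the remaining higher gene of this list, was at 81.5, 74.2 and 93.0 and at 219, 215 and 222 (1.40, SE 0.18, limma adjusted p = 0.00176), and had 0.36 with equal totals.

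**Figure D4:**
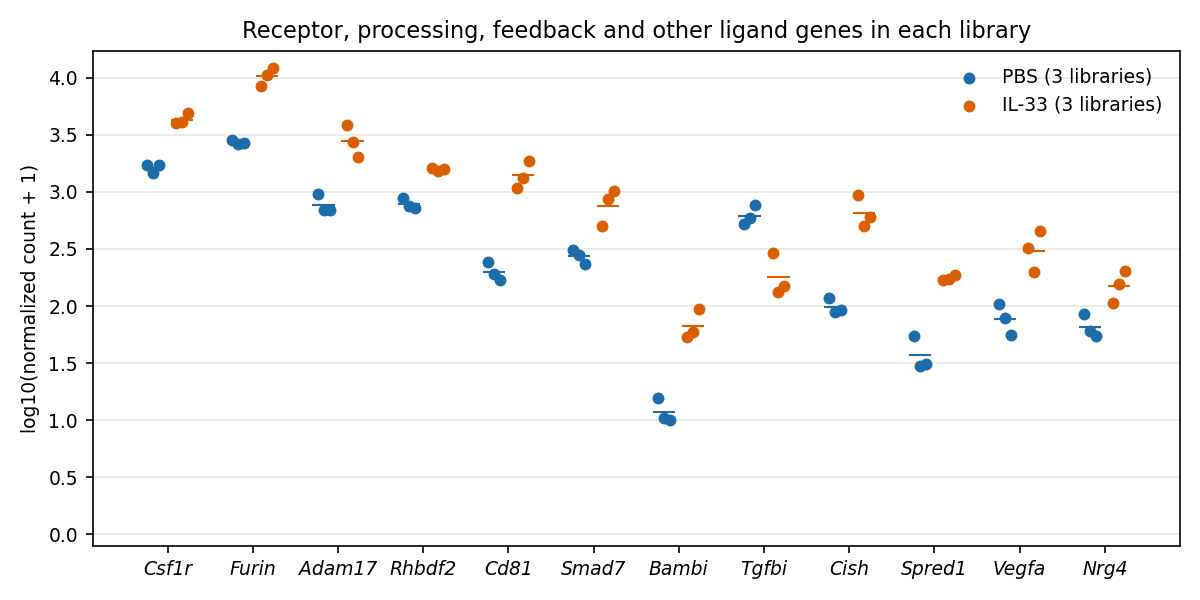
Normalized counts of 12 genes of the pathway lists in each of 3 PBS (blue) and 3 IL-33 (orange) libraries, on a log10(normalized count + 1) axis, with short lines at the means of the plotted log values. Every IL-33 library lies above every PBS library except for Tgfbi, where each lies below.

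Other growth factor and repair ligands mostly lay below the filter. Of 42 listed genes, 11 had 0 reads in all 6 libraries and 11 were tested, of which 3 were higher and 2 lower (median log2 fold change 0.61), while with equal totals 0 were higher and 2 lower. The higher count fell to 1 on leaving out PBS replicate 2, PBS replicate 3 or IL-33 replicate 2, and was 6 on leaving out IL-33 replicate 1. In the same order, 782 of 10292, 695 of 10313, 874 of 10363 and 2910 of 10386 of all genes tested were higher. The lower count of the list was 0 without each library other than IL-33 replicate 1, in fits where 318 to 1196 of all genes were lower. Vegfa, the main angiogenic factor gene, was at 103, 77.1 and 54.5 in PBS and 319, 197 and 449 after IL-33 (1.99, SE 0.34, limma adjusted p = 0.00532), and was not called with equal totals (0.96, limma adjusted p = 0.091). The neuregulin genes Nrg1 (1.32, SE 0.34, limma adjusted p = 0.0215) and Nrg4 (1.20, SE 0.30, limma adjusted p = 0.0196), which encode ligands of other ERBB receptors, were higher with all libraries. Both lost the call without IL-33 replicate 2 (1.06 and 1.17), PBS replicate 2 (1.37 and 1.14) or PBS replicate 3 (1.11 and 1.06), and with either equal-total scaling or the Rn45s covariate.

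The lower ligand genes were Grn and Chi3l3. Grn, the progranulin gene, was at 2332, 2396 and 2055 in PBS and 1637, 1566 and 1458 after IL-33 (-0.54, SE 0.15, limma adjusted p = 0.028). Without IL-33 replicate 1 it kept its call, and it lost it without each other library, at -0.49 to -0.61. Grn was also not called without a trend (limma adjusted p = 0.0567), with the replicate number as a block (limma adjusted p = 0.0562) or with the Rn45s share as a covariate (-0.51, limma adjusted p = 0.112). Chi3l3, the older name of Chil3, which encodes a chitinase-like protein of alternatively activated cells, was at 153, 97.5 and 131 in PBS and 102, 27.7 and 27.1 after IL-33 (-1.53, SE 0.49, limma adjusted p = 0.0442). The groups of Chi3l3 overlapped, and it too was called without IL-33 replicate 1 and not without any other single library (-1.22 to -1.71). Chi3l3 was also not called by edgeR (-1.23, adjusted p = 0.0793), without a trend (limma adjusted p = 0.0607), without a filter (limma adjusted p = 0.0541) or with the Rn45s share as a covariate (-0.23, limma adjusted p = 0.727).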

How the data were processed

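RNA depleted of ribosomal RNA was sequenced from 3 IL-33 and 3 PBS libraries made with a directional kit, per the labels' protocols. The authors deposited these as 1 table of normalized counts per gene, a signal made by dividing each library by 1 factor. The submitters' processing notes list build mm10 and the tools HISAT2, HTSeq and DESeq2. Their versions, the annotation and the strand setting were not given in the sources used here. All values (100%) were whole multiples of the smallest value of their library within 0.1 of a read, which gave the reads and the depth.

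IL-33 minus PBS was tested with limma 3.58.1 in R 4.3.3 (eBayes with a mean-variance trend, two-sided) on log2(normalized count + 1), which understates the change of low genes. Genes had a normalized count of at least 10 in at least 3 libraries, and Benjamini-Hochberg adjustment covered all of them. With 3 against 3 libraries, an exact permutation test cannot go below p = 0.1, so none was used. On simulated counts for 10271 genes (IL-33 against PBS), 33.7% of 2-fold and 100% of 4-fold changes were recovered, with 8 false calls. Every simulated gene had the same dispersion (spread between libraries beyond counting error), so these shares need not hold for the real libraries. Gene spans and exonic lengths are from GENCODE vM21 (GRCm38, the build mm10), 1-based, and upstream sequences from RefSeq.

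The alternatives were pseudocounts of 0.5 and 5, no filter, a filter at 50, TMM scaling, equal totals with and without Rn45s, no trend, the recovered reads tested with edgeR 4.0.16 and DESeq2 1.42.0, a block for the replicate number, the Rn45s share as a covariate, and each library left out in turn. The 10 genes, the lists and the rules were chosen with earlier results of these data known. All 10 genes were named, and from each pathway list up to 3 called genes per direction with the largest change and a mean of at least 20, or else the gene with the smallest p.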

Additional observations from a re-analysis of the deposited data

How the results depend on the processing

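Of the 10 factor genes, 5 were higher and 1 lower, and these counts were the same with other pseudocounts, no filter, TMM scaling, no trend, edgeR and DESeq2. With a filter at 50, where Lif and Hbegf were not tested, 3 were higher. With equal totals 0 were higher and 1 lower, and Csf1 had -0.23. Of the genes named beside them, Rhbdf2 (-0.027), Frmd8 (-0.20) and Thbs1 (-0.18) also changed sign there. Leaving out single libraries gave 2 to 5 higher, with the lowest counts without PBS replicate 2 (2) or PBS replicate 3 (3). In those fits 782 of all 10292 and 695 of all 10313 genes tested were higher, against 1837 of 10544 with all libraries. Over 106 fits of the 6 tested factor genes under alternatives, 94 kept direction and call, 11 lost the call, 1 changed sign, and 0 were called in the opposite direction.

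Of 60 pathway genes tested, 21 were higher and 3 lower. The counts were 5 and 20 with equal totals, 13 and 13 with equal totals without Rn45s, and 1 lower without a trend. Without single libraries they were 12 to 26 higher and 1 to 9 lower, the 9 without IL-33 replicate 1. Over all genes, 1837 were higher and 1522 lower, against 264 and 5285 with equal totals, 951 and 3568 without Rn45s, and 914 and 642 with the Rn45s covariate. Single libraries left out gave 695 to 2910 higher and 318 to 2950 lower. The cause was not tested.

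The labels do not state whether equal replicate numbers share an animal or culture. Deviations from the group means correlated across genes at 0.05, 0.24 and -0.16 for numbers 1, 2 and 3. Pairs of unlike numbers gave -0.28 to 0.24. With 3 libraries per group, these values cannot show whether the libraries are paired. With the replicate number as a block, 5 factor genes were higher and 1 lower, 22 pathway genes were higher and 2 lower, and 1620 and 1298 of all genes were called. Depth limits Areg, Ereg and Tgfa most, at 1, 0 and 0 reads in all, and then Pdgfb, Hbegf, Lif and Flt3l, which have fewer than 300 reads per group.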
